A study of Chlamydomonas reinhardtii with 9 samples.

Results

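The mitochondrial respiratory chain of the green alga Chlamydomonas reinhardtii was followed through 62 genes, of 17301 transcripts in the deposited table, as cells spent up to 48 h without added iron. A gene was taken when its name began with NUO, SDH, QCR, COX or ASA and its mean level over the 9 sampled times was at least 1 RPKM, a transcript level in reads corrected for transcript length and library size. The level criterion removed 0 genes, so the prefixes alone set the membership. By prefix, 33 genes belonged to complex I (NUO), 2 to complex II (SDH), 6 to complex III (QCR), 13 to complex IV (COX) and 8 to the ATP synthase (ASA). By the deposited descriptions, 56 of the 62 encode subunits and 6 encode assembly factors, namely NUOAF1 of complex I and COX10, COX11, COX16, COX17 and COX19 of complex IV.

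The groups were cells of strain CC-4532 taken at 0.5, 1, 2 and 4 h after the removal of iron, then at 8, 12 and 24 h and last at 48 h, and the washed cells at 0 h. All of them had been grown in continuous light on Tris-acetate-phosphate medium to mid-logarithmic phase, spun down, washed without Fe-EDTA, the medium's iron source, and moved to fresh medium without it. Each time had 2 columns of values, described in the series' design as biological duplicates, with 1 sample registered per time. No culture kept with iron was among the samples, so hours without iron, hours in fresh medium and growth of the culture cannot be told apart. A fall in a transcript's RPKM in such cultures is a fall relative to other transcripts, and RNA per cell was not measured.

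Electrons enter the chain from NADH through complex I (NADH:ubiquinone oxidoreductase), which carries a flavin and a row of iron-sulfur clusters, or from succinate through complex II (succinate dehydrogenase), an enzyme of the citric acid cycle. Complex III passes them from ubiquinol to cytochrome c over hemes and the Rieske iron-sulfur cluster, and complex IV (cytochrome c oxidase) passes them to oxygen over hemes and copper. The proton gradient built on the way drives the ATP synthase, which in Chlamydomonas and its relatives holds ASA proteins (ATP synthase associated proteins) that form its outer stalk and join the enzyme in pairs. Subunits encoded in the mitochondrial genome were not among the members and were not analysed here.

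The libraries held 13.2 to 33.4 M reads, as recovered from the values, and Pearson's r between the duplicates of a time, taken over genes that are no independent replicates, was 0.981 to 0.989. The 5 most thinly read members were NUOS4b, COX11, COX19, COX16 and NUOAF1, with 19, 32, 35, 66 and 111 reads in their lowest columns, and 4 of these 5 are assembly factors. Among the other subunits the lowest column held 620 reads (QCR10). Each time was compared with 0 h by limma-trend on log2(RPKM + 1) over the 13077 genes that reached 1 RPKM in 3 or more times. The added 1 makes changes of weakly expressed genes look smaller than they were. A gene was called when its p adjusted by Benjamini-Hochberg was below 0.05 and its change at least 2-fold, and "rose" and "fell" below stand for such calls. All 62 members entered the test. As there were 2 columns per time, the p-values measure the spread between those columns.

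The members' transcripts were at their highest at 12 h in most complexes, and were at their lowest at 48 h. The mean level peaked at 12 h in 34 of the 62 members and was lowest at 48 h in 54 of them. All 8 ATP synthase members, both of complex II, all 6 of complex III and 12 of 13 of complex IV peaked at 12 h, whereas only 6 of 33 in complex I did. In complex I the highest mean level lay at 1 h in 13 members, at 2 h in 7 and at 12 h in 6. The median log2 change of its subunits was nearly level over these 3 times, at 0.24, 0.20 and 0.24. That of all genes tested was 0.19, 0.07 and -0.14. Peak times here are on the deposited scaling, and centring on the median gene could shift those of complex I towards 12 h. The low point was at 48 h in 29 of 33 complex I members, all 6 of complex III, 11 of 13 of complex IV and all 8 of the ATP synthase, while both complex II members were lowest at 2 h.

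**Figure D1:**
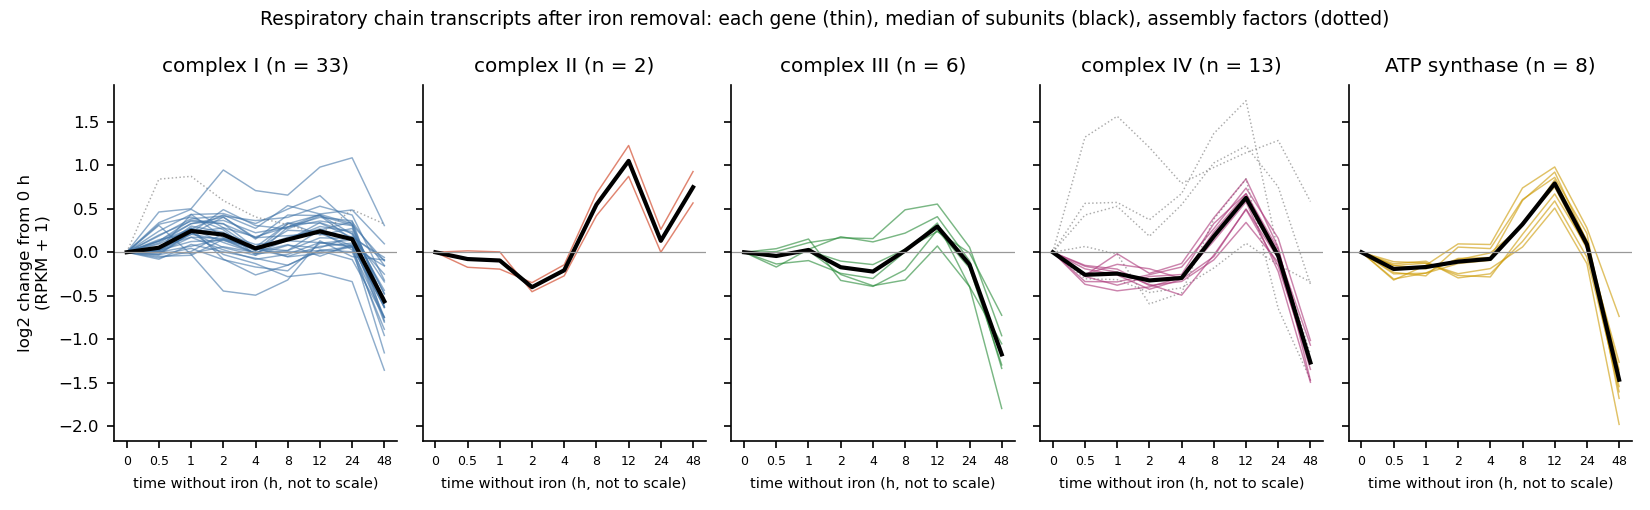
Course of each of the 62 members by complex, as the log2 change from 0 h on the log2(RPKM + 1) scale (vertical axis) over the 9 sampled times (horizontal axis, not to scale). Thin lines are subunits, dotted lines assembly factors, and the black line is the median of the subunits of the complex. At 48 h the medians lay at -0.56 for complex I, 0.75 for complex II, -1.17 for complex III, -1.27 for complex IV and -1.47 for the ATP synthase.

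Few members passed the call before 48 h. At 0.5, 1 and 2 h, 1 member rose, COX16, while 5.64, 8.38 and 9.44% of all genes tested did. None fell at these times, against 3.48, 4.95 and 7.18% of all genes. At an unadjusted p below 0.05 in limma, 10, 27 and 21 members were higher and 9, 9 and 18 lower. Of the 13077 genes tested, 5139, 5694 and 4948 were higher at that p and 2659, 2801 and 3843 lower. At 4 h no member rose or fell, against 5.99 and 11.8% of all genes (12 members higher and 17 lower at an unadjusted p below 0.05). At 8 h, 2 members rose, COX10 and COX11, against 7.36% of all genes, and none fell, against 13.9% (32 higher and 4 lower unadjusted). At 12 h, 4 rose, COX10, COX11, COX16 and SDH4, against 10.1%, and none fell, against 18.0% (46 higher and 1 lower unadjusted). At 24 h, 2 rose, COX16 and NUOS4b, against 14.8%, and none fell, against 6.39% (19 higher and 5 lower unadjusted). At the unadjusted p, 4078, 3557, 4087 and 6626 of all genes were higher at 4, 8, 12 and 24 h. Lower at these times were 4850, 5664, 5608 and 2720. After centring 0 rose at 24 h, against 6.98% of all genes. At 48 h, 23 of the 62 fell, which is 37.1% of the members against 15.8% of all genes, and none rose, against 18.4% (4 higher unadjusted).

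Taken at any size, changes were far more common. At 12 h, 44 members (71.0%) were higher at an adjusted p below 0.05, against 30.3% of all genes, and 1 (1.61%) was lower, against 41.7%. At 48 h, 50 members (80.6%) were lower, against 33.2% of all genes, and 4 (6.45%) were higher, against 43.6%. In 48 members both 12 h columns lay above both 0 h columns, which held in 32.9% of all genes, and in 51 both 48 h columns lay below both 0 h columns, which held in 35.3%. The median log2 change of the members was 0.41 at 12 h and -0.74 at 48 h, while that of all genes tested was -0.14 and 0.14. With every column centred on the median gene, the members' medians were 0.57 and -0.91, with 11 that rose at 12 h, against 13.5% of all genes, and 26 that fell at 48 h, against 19.2%. The 12 h and 48 h comparisons share the 0 h columns.

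From the lowest median log2 change at 48 h to the highest, the complexes stood in the same order in both duplicates. In duplicate 1 the median log2 change of the subunits was -0.54 for complex I, 0.49 for complex II, -1.03 for complex III, -1.17 for complex IV and -1.29 for the ATP synthase. In duplicate 2 it was -0.60, 1.00, -1.24, -1.37 and -1.64 in that order of complexes. Members are not replicates of a condition, so these medians carry no test.

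**Figure D2:**
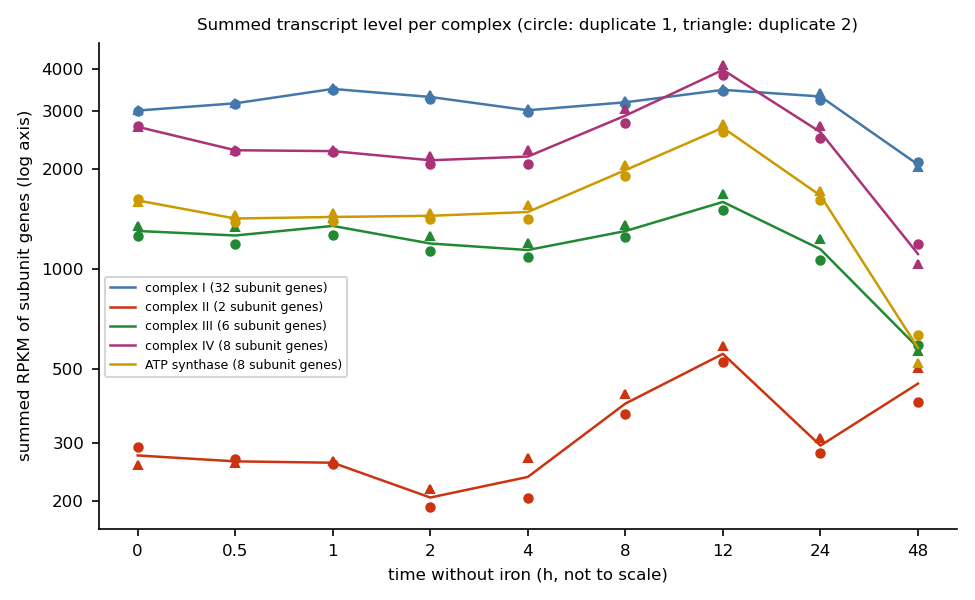
Summed RPKM of the subunit genes of each complex (vertical axis, log scale) over the 9 times (horizontal axis, not to scale), with circles for duplicate 1, triangles for duplicate 2 and lines through their means. At 48 h complex II alone stood above its 0 h sum, at 399 and 505 against 292 and 257 RPKM.

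Complex I had the smallest fall of the 4 complexes that were lower at 48 h. Its 32 subunit genes summed to 2098.7 and 2035.7 RPKM at 48 h, against 3002.1 and 3012.6 RPKM at 0 h, a ratio of 0.687. The median log2 change of the subunits was -0.56, or -0.73 after centring, and 2 of 32 fell, against 15.8% of all genes. NUOA8, the counterpart of the human accessory subunit NDUFA8, read 73.7 and 60.3 RPKM at 48 h, against 200 and 148 RPKM at 0 h (log2 change -1.36 ± 0.10 SE, adjusted p = 2.8e-08). NUOP5, annotated as a subunit of complex I, read 52.8 and 50.9 RPKM at 48 h, against 118 and 116 RPKM at 0 h (log2 change -1.16 ± 0.08 SE, adjusted p = 1.7e-08). In both genes every 48 h value lay below every 0 h value. NUOB12, the complex I gene with the highest mean level, read 151 and 134 RPKM at 48 h, against 220 and 210 RPKM at 0 h, a log2 change of -0.59 that did not reach 2-fold.

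The complex I subunits that hold the iron-sulfur clusters differed among themselves. These are NUOS1, NUO5, NUO6, NUO8 and NUO10, which bind the clusters in the complex I of other organisms. They had a median log2 change of -0.25 at 48 h with a range of -0.75 to 0.10. In limma 0 of the 5 fell, against 15.8% of all genes. Taken at any size, 3 were lower at an adjusted p below 0.05, against 33.2% of all genes. NUOS1 read 27.5 and 27.1 RPKM at 48 h, against 24.8 and 26.1 RPKM at 0 h. NUO5 read 68.1 and 63.3 RPKM at 48 h, against 75.8 and 65.2 RPKM at 0 h, so its columns overlapped. NUO6 had 39.0 and 38.5 RPKM at 48 h, against 52.0 and 57.2 RPKM at 0 h. For NUO8 the 48 h values were 91.8 and 85.1 RPKM, against 114 and 97.3 RPKM at 0 h, and for NUO10 they were 67.2 and 71.0 RPKM, against 112 and 122 RPKM. The last 3 lay lower at 48 h in both columns without overlap, by less than 2-fold. With NUO7 and NUO9, the other core subunits of the matrix arm that reaches into the mitochondrial interior, the median was the same at -0.25, while the other 25 complex I subunits had a median of -0.59. Whether the arm differs from the rest was not tested.

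NUOS4b, annotated as a relative of the accessory subunit NUOS4, stood apart from the other complex I genes in level. Its mean level was highest at 24 h, with 2.57 and 3.09 RPKM, against 0.786 and 0.817 RPKM at 0 h (log2 change 1.09 ± 0.22 SE, adjusted p = 0.00065), a time at which no member passed the call after centring or with a pseudocount of 5 RPKM. At 48 h it read 1.18 and 1.27 RPKM. NUOS4 itself read 58.2 and 51.2 RPKM at 48 h, against 63.0 and 59.1 RPKM at 0 h, a log2 change of -0.16 that did not pass the test. How reads were divided between this pair of related sequences is not known. NUOAF1, the counterpart of the assembly protein CIA30, read 5.98 and 6.27 RPKM at 48 h, against 4.54 and 4.84 RPKM at 0 h. Its mean level was highest at 1 h, with 10.96 and 8.08 RPKM.

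Complex II was the only complex whose transcripts were higher at 48 h. SDH2, the iron-sulfur subunit of succinate dehydrogenase, read 236 and 279 RPKM at 48 h, against 190 and 157 RPKM at 0 h (log2 change 0.57 ± 0.12 SE, adjusted p = 0.00052). SDH4, one of the subunits that anchor the enzyme in the membrane, read 164 and 226 RPKM at 48 h, against 102 and 99.2 RPKM at 0 h (log2 change 0.93 ± 0.13 SE, adjusted p = 1.6e-05). Both genes were higher in both columns without overlap, but under 2-fold. Both 48 h columns also lay above both 0 h columns in 45.2% of all genes tested. At 12 h SDH4 rose, with 214 and 263 RPKM against 102 and 99.2 RPKM at 0 h (log2 change 1.23 ± 0.13 SE, adjusted p = 1.4e-06), and SDH2 read 311 and 324 RPKM, a log2 change of 0.87. The course of the pair had a dip between these times, since SDH2 read 166 and 180 RPKM and SDH4 113 and 129 RPKM at 24 h. After centring, the median log2 change of the pair at 48 h was 0.58. Complex II rests on these 2 genes, as its other subunits were not found by the prefix.

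In complex III, 4 of the 6 subunits fell at 48 h, against 15.8% of all genes. The other 2 were lower by less than 2-fold. The sum over the 6 genes was 592 and 568 RPKM at 48 h, against 1259.8 and 1347.8 RPKM at 0 h, a ratio of 0.445. QCR6, the counterpart of the hinge protein that sits beside cytochrome c1, read 63.0 and 48.6 RPKM at 48 h, against 203 and 187 RPKM at 0 h (log2 change -1.80 ± 0.09 SE, adjusted p = 1.9e-09). QCR10, a small subunit, read 60.1 and 78.7 RPKM at 48 h, against 157 and 195 RPKM at 0 h (log2 change -1.34). QCR8, the complex III gene with the highest mean level, read 143 and 103 RPKM at 48 h, against 311 and 289 RPKM at 0 h (log2 change -1.30). None of these 3 genes overlapped between the times. QCR9 read 127 and 143 RPKM at 48 h, against 244 and 323 RPKM at 0 h, a log2 change of -1.05 that became -0.99 without duplicate 2 of 0 h and -0.98 without duplicate 2 of 48 h, just short of 2-fold. The core protein QCR1, related to the mitochondrial processing peptidase, read 79.3 and 75.8 RPKM at 48 h, against 154 and 150 RPKM at 0 h, a log2 change of -0.96. QCR7 had the smallest change of the complex, with 119 and 120 RPKM at 48 h, against 192 and 204 RPKM at 0 h (log2 change -0.73).

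All 8 complex IV subunits fell at 48 h, against 15.8% of all genes. Their sum was 1188.6 and 1033.6 RPKM at 48 h, against 2696.7 and 2675.8 RPKM at 0 h, a ratio of 0.414. COX2A and COX2B encode subunit II, which carries a copper centre and is split between these genes in Chlamydomonas. COX2B, the member with the highest mean level of all 62, read 271 and 224 RPKM at 48 h, against 668 and 592 RPKM at 0 h (log2 change -1.35 ± 0.09 SE, adjusted p = 1.7e-08). COX2A read 131 and 114 RPKM at 48 h, against 270 and 244 RPKM at 0 h (log2 change -1.07 ± 0.10 SE, adjusted p = 2.9e-07), and this became -0.98 without duplicate 1 of 0 h and -0.95 without duplicate 2 of 48 h. COX3, a core subunit that is nuclear in this alga, read 94.6 and 90.8 RPKM at 48 h, against 212 and 233 RPKM at 0 h (log2 change -1.25).

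The smaller subunits of complex IV fell alongside. COX90, annotated as a subunit without relatives outside green algae, changed most, with 102 and 104 RPKM at 48 h, against 261 and 324 RPKM at 0 h (log2 change -1.50). COX4, related to human subunit Vb, read 99.0 and 79.4 RPKM at 48 h, against 263 and 234 RPKM at 0 h (log2 change -1.48). COX5C, a plant-type subunit, read 154 and 133 RPKM at 48 h, against 332 and 369 RPKM at 0 h (log2 change -1.28). None of these overlapped between the times. COX13, related to human COX6A, read 174 and 136 RPKM at 48 h, against 394 and 333 RPKM at 0 h (log2 change -1.23). COX12, related to subunit VIb, read 163 and 153 RPKM at 48 h, against 296 and 346 RPKM at 0 h. Its log2 change of -1.02 was the smallest of the 8, and became -0.98 without duplicate 2 of 0 h and -0.87 without duplicate 2 of 48 h.

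The assembly factors of complex IV did not move as a block. COX17, the chaperone that brings copper to the oxidase, read 7.25 and 6.24 RPKM at 48 h, against 19.4 and 21.4 RPKM at 0 h (log2 change -1.47 ± 0.14 SE, adjusted p = 4.3e-07). COX11, which takes part in placing copper in the oxidase, read 0.866 and 0.831 RPKM at 48 h, against 2.38 and 4.13 RPKM at 0 h (log2 change -1.17 ± 0.17 SE, adjusted p = 3.5e-05), and this became -0.87 without duplicate 2 of 0 h and -0.49 with a pseudocount of 5 RPKM. Both genes were lower without overlap at 48 h. COX10, the farnesyltransferase of heme A synthesis, read 6.79 and 6.56 RPKM at 48 h, against 7.56 and 10.4 RPKM at 0 h, and COX19 read 1.94 and 1.81 RPKM, against 2.52 and 2.77 RPKM. COX16, known as an assembly factor in yeast, read 5.97 and 4.64 RPKM at 48 h, against 3.37 and 2.998 RPKM at 0 h, a log2 change of 0.58. COX10 and COX19 were thus lower and COX16 higher, all by less than 2-fold.

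The ASA genes of the ATP synthase had the largest decline, and 7 of 8 fell at 48 h, against 15.8% of all genes. Their sum was 635 and 523 RPKM at 48 h, against 1624.6 and 1598.2 RPKM at 0 h, a ratio of 0.359. ASA8 changed most of all 62 members, with 84.0 and 84.9 RPKM at 48 h, against 316 and 358 RPKM at 0 h (log2 change -1.98 ± 0.10 SE, adjusted p = 1.2e-09). ASA2 read 23.0 and 21.0 RPKM at 48 h, against 73.4 and 72.1 RPKM at 0 h (log2 change -1.68). ASA7 read 69.0 and 62.1 RPKM at 48 h, against 195 and 208 RPKM at 0 h (log2 change -1.61). In each of these the 48 h values were below the 0 h values with a wide gap. ASA9 read 100.1 and 63.7 RPKM at 48 h, against 263 and 210 RPKM at 0 h (log2 change -1.55), and ASA3 read 51.3 and 45.6 RPKM, against 119 and 138 RPKM (log2 change -1.39). ASA5, the most highly expressed of the 8, read 139 and 112 RPKM at 48 h, against 318 and 322 RPKM at 0 h (log2 change -1.35). ASA6 read 98.6 and 71.5 RPKM at 48 h, against 226 and 183 RPKM at 0 h (log2 change -1.27). ASA1 was the exception, at 70.2 and 62.1 RPKM at 48 h, against 114 and 108 RPKM at 0 h, a log2 change of -0.74 that did not reach 2-fold.

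**Figure D3:**
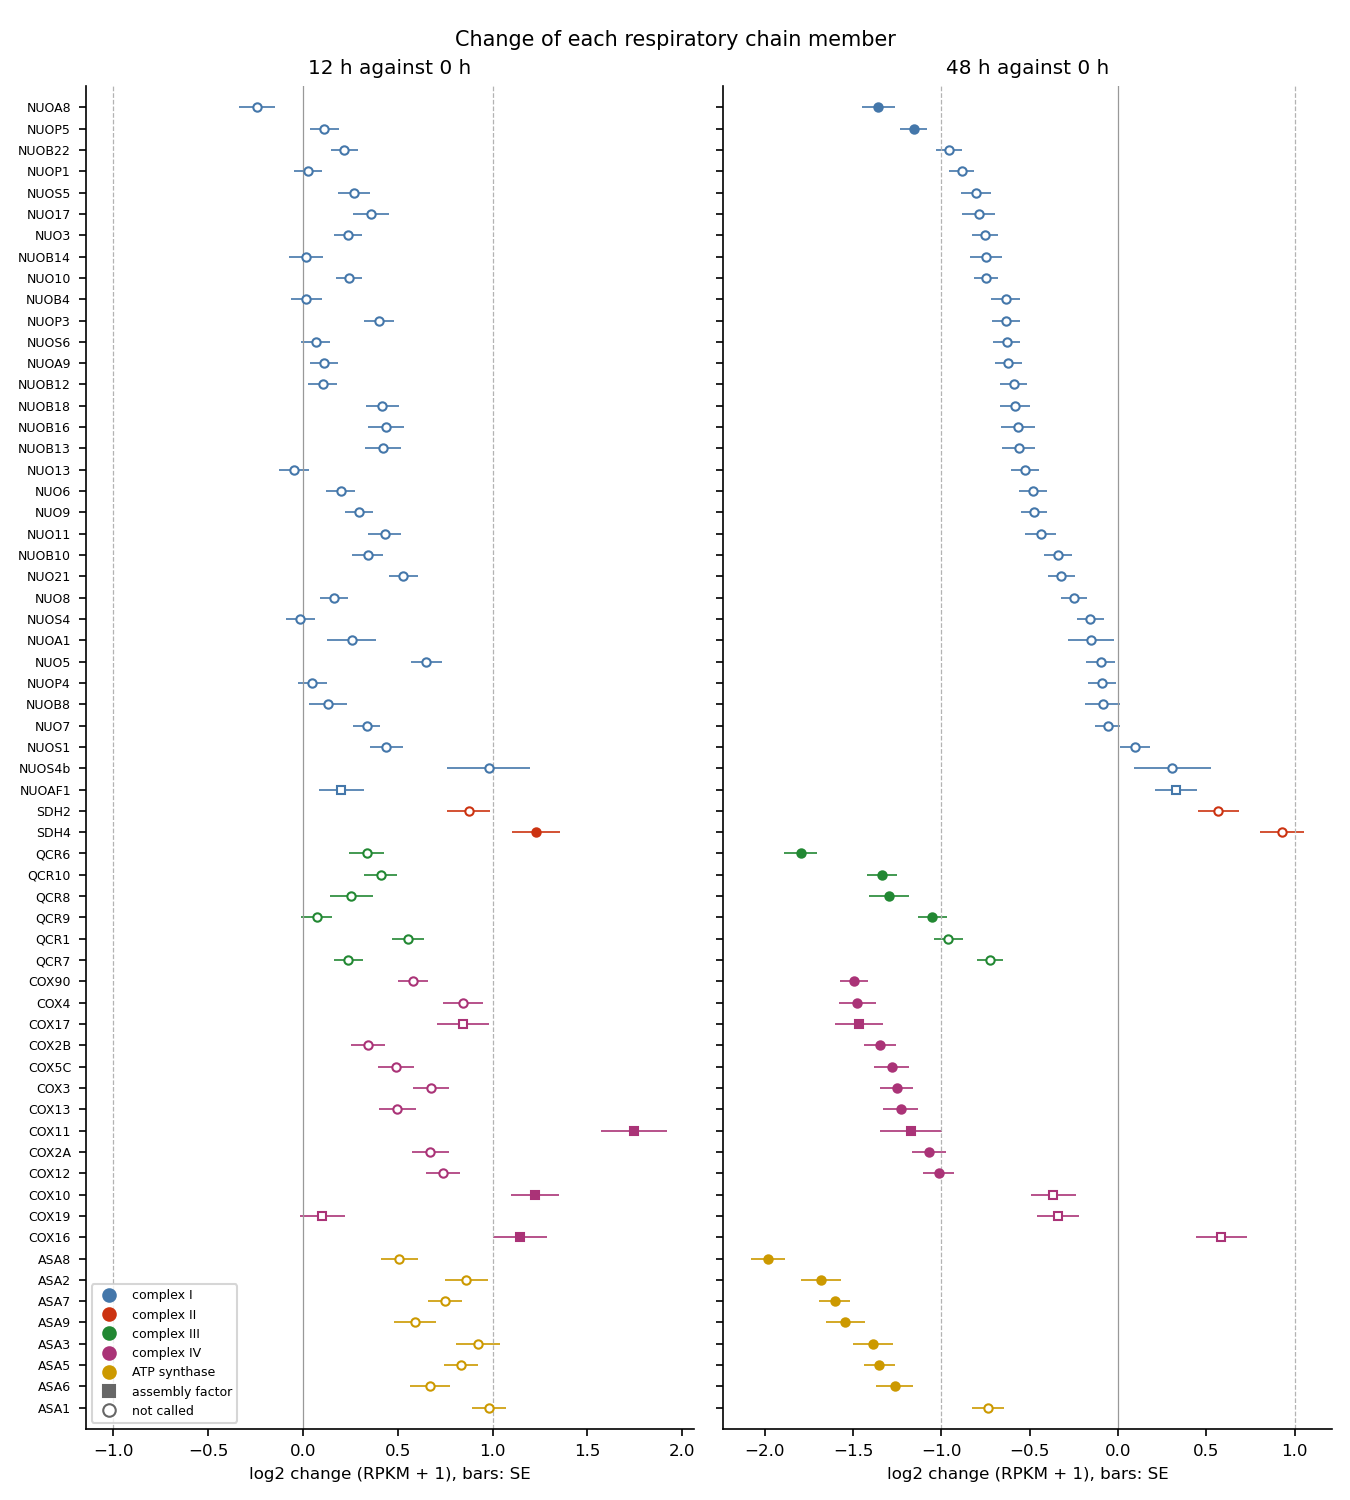
Log2 change of each of the 62 members at 12 h (left) and at 48 h (right) against 0 h, with bars for the standard error and dashed lines at 2-fold. Filled symbols are called genes, squares are assembly factors, and colours give the complex. The 4 filled symbols at 12 h lie right of the line, and the 23 at 48 h lie left of it.

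At 12 h nearly all members lay above 0 h, mostly by less than 2-fold. The median log2 change of the subunits was 0.24 for complex I, 1.05 for complex II, 0.30 for complex III, 0.63 for complex IV and 0.79 for the ATP synthase, beside -0.14 for all genes tested. After centring these medians were 0.41, 1.22, 0.46, 0.79 and 0.96. The summed level at 12 h over that at 0 h was 1.15 for complex I, 2.03 for complex II, 1.22 for complex III, 1.48 for complex IV and 1.66 for the ATP synthase. ASA1 came nearest to a call in its complex, with 219.9 and 219.5 RPKM at 12 h, against 114 and 108 RPKM at 0 h (log2 change 0.98). Among complex IV subunits COX4 had the highest log2 change, with 432 and 461 RPKM at 12 h, against 263 and 234 RPKM at 0 h (log2 change 0.84). After centring, the genes added to the calls at 12 h were ASA1, ASA2, ASA3, COX4, COX17, SDH2 and NUOS4b.

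The genes that rose at 12 h were of low level apart from SDH4. COX11 read 12.1 and 13.8 RPKM at 12 h, against 2.38 and 4.13 RPKM at 0 h (log2 change 1.74 ± 0.17 SE, adjusted p = 1e-06), the largest change of any member at that time. COX10 read 20.2 and 24.1 RPKM, against 7.56 and 10.4 RPKM at 0 h (log2 change 1.22 ± 0.13 SE, adjusted p = 1.4e-06). COX16 read 9.19 and 7.39 RPKM, against 3.37 and 2.998 RPKM at 0 h (log2 change 1.15 ± 0.14 SE, adjusted p = 9.4e-06). All 3 are assembly factors of complex IV, and in each the 12 h values lay above the 0 h values. With a pseudocount of 5 RPKM, COX10 changed by 0.96 and COX16 by 0.70, and neither passed the call, while COX11 did, at 1.13. COX16 was the member that had already risen at 0.5, 1 and 2 h, with 11.03 and 8.11 RPKM at 0.5 h and 12.0 and 10.7 RPKM at 1 h (log2 changes 1.32 and 1.56). COX10 and COX11 had risen by 8 h, at 16.6 and 22.1 RPKM and at 9.02 and 10.5 RPKM (log2 changes 1.03 and 1.37). With a pseudocount of 5 RPKM no member passed the call at 0.5, 2 or 8 h. The lowest change at 12 h was that of NUOA8, with 154 and 138 RPKM, against 200 and 148 RPKM at 0 h (log2 change -0.24).

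The members' median decline to 48 h was larger from 12 h than from 0 h, which follows from their higher 12 h levels. It is therefore no separate result. The comparison of 48 h with 12 h was chosen after earlier results of these data were known. In those results the members were slightly higher at 12 h and lower at 48 h. At 48 h against 12 h, 32 members fell, against 10.3% of all genes, and none rose, against 19.0% (0 higher at an unadjusted p below 0.05). This comparison shares its columns with those above. The median log2 change of the members was -1.002, and -1.34 after centring, with 48 that fell after centring, against 15.6% of all genes. By complex, the subunit medians were -0.76 for complex I, -0.30 for complex II, -1.53 for complex III, -1.76 for complex IV and -2.25 for the ATP synthase, beside 0.32 for all genes. The sum of the ASA genes at 48 h was 0.217 times that at 12 h, and the sum of the complex I subunits 0.595 times. COX11 had the largest fall, at 0.866 and 0.831 RPKM at 48 h, against 12.1 and 13.8 RPKM at 12 h (log2 change -2.92 ± 0.17 SE, adjusted p = 8.5e-09). Of the 32, 8 were complex I subunits, and 4 of those, NUOB16, NUOB18, NUOP3 and NUOS5, stood at -1.001 to -1.07 and came to -0.87 to -0.98 without duplicate 2 of 48 h.

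How the decline divided around 24 h depended on the scaling. The members' median log2 change was -0.22 at 24 h against 12 h and -0.89 at 48 h against 24 h as deposited, and -0.71 and -0.73 after centring. At 24 h against 12 h, 2 members fell, COX11 and COX17, against 2.24% of all genes, and none rose, against 14.6% (1 higher unadjusted). COX17 read 11.8 and 13.5 RPKM at 24 h, against 37.4 and 37.5 RPKM at 12 h (log2 change -1.49), and COX11 read 3.04 and 3.28 RPKM, against 12.1 and 13.8 RPKM (log2 change -1.75). Neither gene overlapped between the times. After centring, which takes off the 0.40 by which the median of all genes was higher at 24 h, 20 members fell, against 6.26% of all genes. At 48 h against 24 h, 26 members fell, against 16.1% of all genes, and none rose, against 7.43% (2 higher unadjusted). After centring 17 fell, against 12.5% of all genes.

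Genes of one complex mostly followed each other over the 9 times. Each subunit was compared, by Pearson's r over the 9 time means, with the median course of every complex, its own computed without it. Its own complex was the most similar for 28 of 32 subunits of complex I, both of complex II, 4 of 6 of complex III, 6 of 8 of complex IV and 4 of 8 ASA genes. For complex II this is a single correlation, of SDH2 with SDH4 (r = 0.95). The median r with the own complex was 0.94 in complex I, 0.93 in complex III, 0.99 in complex IV and 0.98 in the ATP synthase. The 4 ASA genes closest to another complex resembled complex III or IV, at r of 0.91 to 0.99. NUOB8 resembled its own complex least (r = -0.03), with 164 and 156 RPKM at 48 h, against 150 and 192 RPKM at 0 h. These values describe 9 time points whose libraries all genes share, and carry no test. Of the 62 genes, 54 were matched in the RefSeq gene table, on 15 chromosomes or scaffolds, and the nearest pair, NUOB14 and NUOB10 on chromosome 12, had 1 gene between them.

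Other genes of the same enzymes, which the prefixes do not capture, were set beside the members and beside the 15.8% of all genes that fell and the 18.4% that rose at 48 h. Of 10 genes of the catalytic and membrane core of the ATP synthase (ATP), 9 fell at 48 h and 1 rose, with a median log2 change of -1.74, beside 0.70 at 12 h. ATP9A, for the proton-carrying ring, read 164 and 104 RPKM at 48 h, against 855 and 778 RPKM at 0 h (log2 change -2.63). ATP1A, for the alpha subunit, read 59.0 and 36.4 RPKM at 48 h, against 249 and 236 RPKM at 0 h (log2 change -2.36), and was the 1 gene of the list that rose at 12 h, with 530 and 527 RPKM (log2 change 1.12). Its isoform ATP1B went the other way at 48 h, with 17.2 and 23.0 RPKM, against 9.15 and 8.61 RPKM at 0 h (log2 change 1.08), though reads of the isoform pairs may have been divided between them. Of 4 genes for cytochrome c1, the Rieske protein and the processing peptidase subunits MPPA1 and MPPA2 that form part of complex III, 3 fell at 48 h (median -1.11). The Rieske gene RIP1 read 62.6 and 75.2 RPKM at 48 h, against 126 and 185 RPKM at 0 h (log2 change -1.14), and cytochrome c1 (CYC1) changed by -0.92. The 3 carbonic anhydrase-like complex I genes CAG1, CAG2 and CAG3 changed by -0.20, -0.41 and 0.48 at 48 h, and none passed the call.

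**Figure D4:**
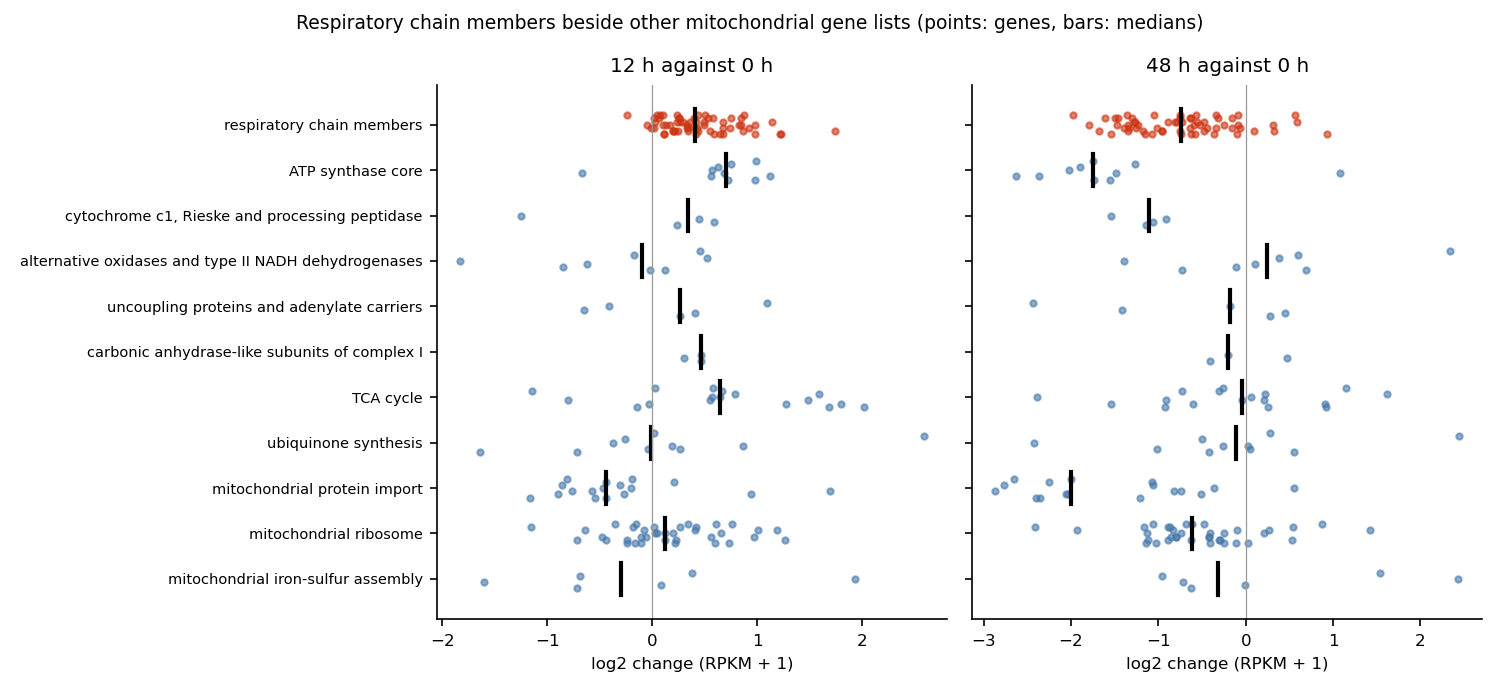
Log2 change at 12 h (left) and 48 h (right) against 0 h of the 62 members (top) and of genes in 10 other lists. The lists were drawn up by gene symbol under mitochondrial functions, and whether each product is mitochondrial was not checked. Each point is a gene and each bar the median of its list. At 48 h the medians were -0.74 for the members, -1.74 for the ATP synthase core, 0.25 for alternative oxidases and type II NADH dehydrogenases and -2.01 for protein import.

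Genes of enzyme families that can bypass the proton-pumping complexes behaved differently from gene to gene. Their call counts can be read against the same shares of all genes. The list was drawn up by gene symbol, and whether each product sits in the mitochondrion was not checked. Of 8 genes for alternative oxidases, which pass electrons from ubiquinol straight to oxygen, and type II NADH dehydrogenases, which need no iron-sulfur cluster, 1 rose and 1 fell at 48 h (median 0.25), and 1 fell at 12 h. AOX1 read 74.4 and 66.3 RPKM at 48 h, against 212 and 163 RPKM at 0 h (log2 change -1.39), and had been lower at 12 h (log2 change -1.83). NDA7 read 2.89 and 12.1 RPKM at 48 h, against 0.540 and 0.294 RPKM at 0 h (log2 change 2.34), with duplicates far apart. Of 5 uncoupling proteins and adenine nucleotide carriers, ANT1, which exchanges ATP for ADP across the inner membrane, read 299 and 223 RPKM at 48 h, against 1595.8 and 1223.3 RPKM at 0 h (log2 change -2.43), after a rise at 12 h (log2 change 1.10), and UCP1 fell at 48 h (log2 change -1.42). The medians of these 5 were 0.26 at 12 h and -0.18 at 48 h.

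Further lists gave a wider setting, beside the shares of all genes that rose (10.1% at 12 h and 18.4% at 48 h) and fell (18.0% at 12 h and 15.8% at 48 h). Of 17 genes listed by symbol under the citric acid cycle, 6 rose and 1 fell at 12 h (median 0.65). FUM1 (log2 change 2.02) and ACH1 (1.80) were among those that rose, and PDH2 (-1.15) fell. At 48 h 2 rose and 2 fell (median -0.05), with IDH2 at -2.39 and MDH2 at 1.62. Whether each of these isoforms acts in the mitochondrion was not checked. Of 10 genes of ubiquinone synthesis, 1 rose and 1 fell at 12 h and 1 rose and 2 fell at 48 h (median -0.12), with COQ5B at 2.44 and COQ5A at -2.42. Of 17 genes of mitochondrial protein import, 1 rose and 1 fell at 12 h and 12 fell at 48 h (medians -0.44 and -2.01), with TIM17 at -2.87 and TIM22B at -2.76. Of 37 mitochondrial ribosomal protein genes, 3 rose and 1 fell at 12 h, and 1 rose and 8 fell at 48 h (medians 0.12 and -0.62), with MRPS6 at -2.41 and MRPS34 at -1.93. Of 6 iron-sulfur assembly genes, 1 rose and 1 fell at 12 h (IBA57 at 1.93 and ISD11 at -1.60), and 2 rose at 48 h (IBA57 at 2.42 and ISU1 at 1.54), with medians of -0.30 and -0.32. The lists were chosen with results of these data known, and their counts carry no test of a difference from the members.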

How the data were processed

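Total RNA of 9 times was sequenced, and the authors deposited 1 table of 17301 transcripts with 18 columns, 2 per time, and 0 columns left unused here. The deposited values were read as RPKM. That unit stands in no header and was inferred, since the values are whole reads over length and library size. Per the submitters' processing notes the authors used Bowtie, and no version, build or counting tool is given in the sources used here. Depth was recovered from the steps between low values, in Python 3.11.15 (pandas 2.3.3, numpy 2.4.6).

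R 4.3.3 with limma 3.58.1 gave the tests, run on log2(RPKM + 1) with time as a factor and the duplicate number as a block, over all 18 columns, which left 8 residual degrees of freedom, for 11 comparisons. The duplicate numbers come from the column names, and same-numbered columns deviated together. Over 36 pairs of times the correlation of the difference between duplicates was 0.31 to 0.73. The method was tested on simulated data whose columns varied independently, so the simulation lacked this shared deviation. The members, the lists and the comparison of 48 h with 12 h were chosen with earlier results of these data known. Values are given for the member of each complex with the highest mean, the extremes at 12 h and 48 h, every member called there, the iron and copper subunits, members whose call rests on 1 column, and the largest changes of other lists. Alternatives were pseudocounts of 0.1, 0.5 and 5 RPKM, no filter or 5 RPKM, median centring and no block. Each column of 0, 12 and 48 h was also left out in turn, but no column of another time was. Further alternatives were an adjusted p below 0.01, no fold minimum, a mean of at least 5 RPKM, and subunits alone.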

Additional observations from a re-analysis of the deposited data

How the results depend on the processing

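Of 59 called member changes at 12 h and 48 h, 0 reversed and 49 were kept in every setting run. The members' median, small at other times, changed sign with centring: for 0.5, 1, 4 and 24 h it was -0.13, -0.07, 0.11 and -0.24 with centring, and 0.005, 0.10, -0.01 and 0.08 as deposited. The count that fell at 48 h against 0 h was 20 to 24 with each column left out in turn, at 48 h against 12 h it was 30 to 33, and the count that rose at 12 h was 4 to 6. With no fold minimum these counts were 50, 58 and 44. Without the replicate block they were 23, 32 and 4, and no call changed. The count that rose at 12 h was 2 with a pseudocount of 5 RPKM, 11 with median centring and 1 for subunits alone. With a pseudocount of 5 RPKM no member rose at 0.5, 2, 8 or 24 h (0 each). With 0.1 RPKM, 2 rose at 2 h, 1 at 4 h and 4 at 8 h, and with 0.5 RPKM 2 rose at 2 h. At 24 h 1 rose with the filter of 5 RPKM and 0 with centring. Centring gave 20 that fell at 24 h against 12 h and 17 at 48 h against 24 h. It gave subunit medians of 0.41 and -0.73 for complex I, 0.46 and -1.35 for complex III, 0.79 and -1.44 for complex IV at 12 h and 48 h, and 0.96 for the ATP synthase at 12 h, whose log2 ratio of summed RPKM was 0.73. The pseudocount weighs most on COX10, COX11, COX16 and NUOS4b, whose levels are low. Only 2 columns per time limit every comparison.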

Other observations

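Assembly factors of the complexes, taken by their description and after their values were seen, number 14, of which 6 are among the members by prefix. At 12 h 6 of the 14 rose, against 10.1% of all genes, and 1 fell, against 18.0% (median log2 change 0.52). At 48 h 4 fell, against 15.8% of all genes, with a median of -0.44. SHY1, the counterpart of the oxidase assembly protein SURF1, read 9.62 and 13.4 RPKM at 12 h, against 2.57 and 3.07 RPKM at 0 h (log2 change 1.70). OXA1, which inserts proteins into the inner membrane, read 10.9 and 8.56 RPKM at 12 h, against 1.77 and 2.96 RPKM at 0 h (log2 change 1.69), and ATP11, a chaperone of the ATP synthase, read 14.9 and 11.4 RPKM, against 3.99 and 5.60 RPKM (log2 change 1.29). These 3 are named because they rose, and all 3 were higher at 12 h without overlap, which held in 32.9% of all genes. CBP3, ATP12a, PET191 and SCO1, also outside the prefixes, changed by -0.05, 0.11, -0.26 and -0.14 at 12 h and were not called. BCS1, which in yeast installs the Rieske protein in complex III, read 62.4 and 182 RPKM at 12 h and 63.7 and 41.8 RPKM at 48 h, against 393 and 672 RPKM at 0 h, with log2 changes of -2.26 at 12 h and -3.29 at 48 h. SCO1, a copper factor of the oxidase, read 6.44 and 5.17 RPKM at 48 h, against 11.8 and 14.7 RPKM at 0 h (log2 change -1.07).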
